A study of Mus musculus with 28 samples.

Results

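Trimethylation of lysine 4 on histone H3 (H3K4me3) was compared between mouse lung tumours that carried an activated K-Ras allele alone and lung tumours that had also been engineered to lose Mll4. The comparison used the 4 H3K4me3 peak lists of the series, 2 whose names carry the tag MLL (replicates 1 and 2) and 2 whose names carry the tag RAS (replicates 3 and 4), out of 24 antibody libraries and 28 samples in all. They were chosen by mark and by these tags. The labels give the mark and the replicate number of each library but not its tumour type, so MLL was taken to mean K-RasLSL-G12D;Mll4fl/fl and RAS to mean K-RasLSL-G12D. Tumours of both kinds arose in mice treated with Ad-CMV-Cre, an adenovirus in which the general CMV promoter drives Cre recombinase. Cre opens the K-Ras allele in both groups and removes the floxed Mll4 in one, in whichever lung cells the virus enters. Pieces of whole tumour were used, with whatever other cells they held, and the age, sex and strain of the mice, and whether each replicate was a separate animal, are not given in the sources used here.

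H3K4me3 sits around the start sites of active and poised genes, and the widest H3K4me3 domains tend to lie at genes that define a cell type. Mll4 encodes a histone H3 lysine 4 methyltransferase. The name has been used for more than 1 member of the MLL family, whose members differ in how far they act at promoters and at enhancers, where H3K4me1 is the usual lysine 4 mark. Among the other marks mapped in the same tumours, H3K27ac accompanies active promoters and enhancers, H3K79me2 follows transcribed genes, H3K27me3 is laid down by Polycomb complexes, and H3K9me3 is typical of heterochromatin. A poised promoter often holds H3K4me3 together with H3K27me3.

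The 4 lists held 71727 H3K4me3 peaks. Peaks closer than 1 kb were joined into regions, a region of at least 1 kb was called promoter-like, and one of at least 4 kb was called broad. Each peak carries the authors' own score, which starts at 50 in these lists and is used here to rank or filter regions only. Read counts are not part of these lists, and sequencing depth is therefore unknown. Positions are on mouse build mm9, the build listed in the submitters' processing notes, and no gene annotation of that build was used, so regions are given by position and the markers of lung cell types and the loss of Mll4 itself were not checked.

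MLL replicate 1 stood far from the other 3 libraries. Its list covered 3.18 Mb, against 33.0 Mb in MLL replicate 2, 26.97 Mb in RAS replicate 3 and 32.6 Mb in RAS replicate 4. Its median region was 274 bp wide and its median peak score was 74.2. Region number, width, covered length and presence are therefore given with it and without it, while region-by-region widths, chromosome ratios and distances use the other 3 libraries only, and without it the MLL group is a single library that allows no test. Among the other marks, the H3K27ac list of MLL replicate 2 stood apart, since 82.7% of its peaks touched H3K79me2 of the same tumour, against 43.0%, 40.0% and 36.4% in replicates 1, 3 and 4. Counts of H3K27ac over the 4 tumours include this list.

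Promoter-like regions numbered 1025 in MLL replicate 1, 13543 in MLL replicate 2, 11736 in RAS replicate 3 and 12118 in RAS replicate 4. The RAS libraries lay close together and the MLL libraries lay on either side of them, so the groups overlapped. The means were 7284 ± 8852 for MLL and 11927 ± 270 for RAS (SD, n = 2 each), a log2 difference of -1.68 with an exact two-sided permutation p of 1. With 2 libraries against 2 there are 6 splits, and the smallest p they allow is 0.333. Without MLL replicate 1 the direction turned: MLL replicate 2 held 1.14-fold more promoter-like regions than the RAS mean, a log2 difference of 0.18, against 0.05 between RAS replicates 4 and 3. In bulk tissue, a smaller share of cells that carry the mark and less mark per cell cannot be told apart.

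The total number of regions showed less of a gap. It was 7905 in MLL replicate 1, 14382 in MLL replicate 2, 15605 in RAS replicate 3 and 14126 in RAS replicate 4. MLL replicate 2 lay between both RAS libraries here, so its surplus of promoter-like regions came with fewer narrow ones. Regions under 1 kb numbered 839 in MLL replicate 2, 3869 in RAS replicate 3 and 2008 in RAS replicate 4, and they made up most of MLL replicate 1, at 6880. The smallest peak of each list was 90, 348, 51 and 207 bp in replicates 1 to 4, and its part in the number of narrow regions was not tested. The share of regions of promoter-like width was 12.97%, 94.2%, 75.2% and 85.8% in the same order.

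**Figure D1:**
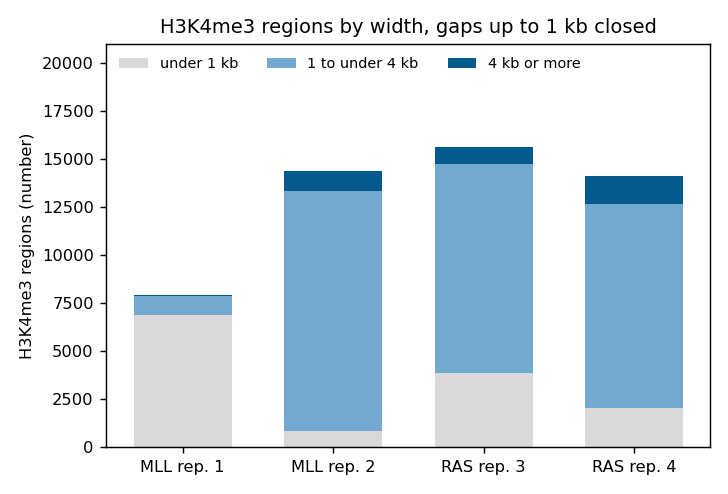
Number of H3K4me3 regions per library (vertical axis) after gaps of up to 1 kb were closed, 1 bar per library, stacked by region width. MLL replicate 1 has 1025 regions of 1 kb or more, while the other 3 libraries have between 11736 and 13543.

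Region width was compared after gaps were closed, because RAS replicate 3 was broken into many small peaks. That library had 30191 peaks, or 1.93 peaks per region, against 1.35 in MLL replicate 1, 1.03 in MLL replicate 2 and 1.14 in RAS replicate 4. Median region width was 274 bp in MLL replicate 1, 2066 bp in MLL replicate 2, 1720 bp in RAS replicate 3 and 2043 bp in RAS replicate 4. The MLL mean was 1170 ± 1267 bp and the RAS mean 1882 ± 228 bp (SD, n = 2 each), with a log2 difference of -1.32 and an exact two-sided permutation p of 1. Without MLL replicate 1 the log2 difference was 0.14, smaller than the 0.25 between the RAS libraries. MLL replicate 2 and RAS replicate 4 had nearly the same median width.

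Covered length gave the same picture. It differed by -1.53 on the log2 scale between MLL and RAS (exact two-sided permutation p of 1, n = 2 each) and by 0.16 without MLL replicate 1, against 0.27 between RAS replicates 4 and 3.

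**Figure D2:**
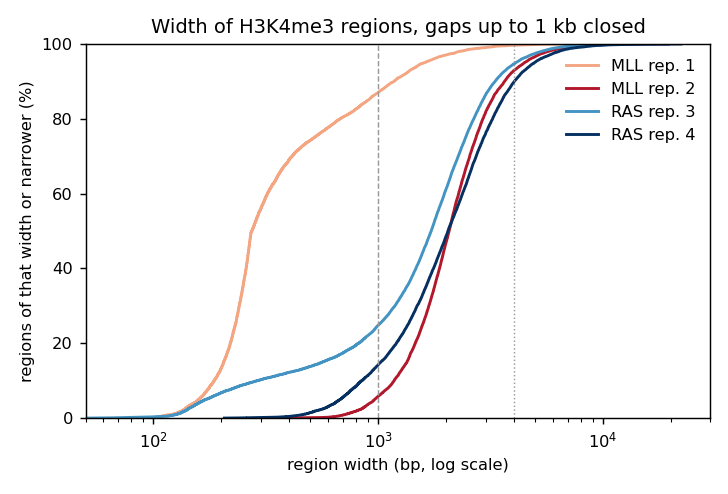
Cumulative share of H3K4me3 regions (vertical axis, percent) by region width (horizontal axis, bp, log scale), 1 line per library, with dashed and dotted lines at 1 kb and 4 kb. The lines of MLL replicate 2 and RAS replicate 4 cross near their medians of 2066 and 2043 bp, and MLL replicate 1, with a median of 274 bp, lies far to the left.

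Broad regions, the class that often marks cell identity genes, numbered 26 in MLL replicate 1, 1028 in MLL replicate 2, 838 in RAS replicate 3 and 1452 in RAS replicate 4. MLL replicate 2 lay between both RAS libraries, which themselves differed by 0.79 on the log2 scale. With MLL replicate 1 the log2 difference between MLL and RAS was -2.75 (exact two-sided permutation p of 0.667, n = 2 each). Where the other 3 libraries were set on common regions, 1828 held a broad region in at least 1 library and 620 in all 3. The next largest class was broad in RAS replicate 4 alone, with 567. A further 215 were broad in MLL replicate 2 and in no RAS library, and 118 were broad in both RAS libraries and not in MLL replicate 2. These were mostly regions near the limit of 4 kb: 114 of the 118 still held H3K4me3 in MLL replicate 2 and 96 of them reached 3 kb there, and 161 of the 215 reached 3 kb in a RAS library.

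The 5 widest regions shared by all 4 libraries were chosen by their median width, so their widths are a description. In MLL replicate 1 they measured 1460 to 5802 bp. The widest, chr12:57619661-57641862, spanned 19500 bp in MLL replicate 2, 19539 bp in RAS replicate 3 and 22202 bp in RAS replicate 4, and 4874 bp in MLL replicate 1. It also carried H3K27ac and H3K79me2 in 4 of 4 tumours. The third and the fourth, chr14:22800457-22815424 and chr8:94876861-94891123, were likewise marked by H3K27ac and H3K79me2 in all 4 tumours and measured between 12895 and 14968 bp in MLL replicate 2 and the RAS libraries. The fifth, on chromosome 18, measured 11768, 12530 and 13614 bp in replicates 2 to 4. The second, chr7:13418306-13437303, was the only one of the 5 with H3K9me3 in every tumour, over 13595 to 15755 bp, beside H3K27ac over 1110 to 6396 bp and H3K79me2 over 2944 to 7622 bp. H3K4me3 covered 17514, 13269 and 18998 bp in replicates 2 to 4. In MLL replicate 1 the H3K4me3 region measured 1460 bp, with a score of 74.96.

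Presence was compared over 19097 regions, the union of the 4 libraries, where a region counted as present with at least 1 bp of overlap. Only 35 regions (0.183%) were found in both MLL and no RAS library, and 497 (2.6%) in both RAS and no MLL library. Both counts rest in part on the weak library: without it they were 662 and 537 regions of a union of 3 libraries. All 4 libraries shared 5012 regions, while 7399 regions, the most frequent pattern, were missing from MLL replicate 1 alone. MLL replicate 1 held 2091 regions that no other library held, with a median width of 240 bp, of which 30 reached 1 kb. Between 1.29% and 4.30% of these carried H3K27ac in any of the 4 tumours.

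Detection in MLL replicate 1 followed the strength of a region in the other libraries. The 12415 regions shared by the other 3 were ranked by their scores there and divided into 5 groups of 2483. MLL replicate 1 held 11.2% of the lowest group, then 21.6%, 35.0% and 53.6%, and 77.7% of the highest. Even in the highest group its regions were narrow: where found, their median width was 652 bp, against 3162, 2999 and 3569 bp in replicates 2, 3 and 4.

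Without MLL replicate 1 the union held 17024 regions, and 12415 of them (72.9%) were found in all 3 libraries. MLL replicate 2 held 662 regions (3.89%) found in no RAS library. Both RAS libraries held 537 regions (3.15%) not found in MLL replicate 2. Regions that divide the RAS libraries from each other numbered 995 missing from RAS replicate 4 alone, 197 missing from RAS replicate 3 alone, 1334 found in RAS replicate 3 and 884 found in RAS replicate 4 and in neither other library. The order of these classes depended on the setting. With at least 50% of a union region covered, 1585 regions were in MLL replicate 2 and no RAS library, beside 1317 and 1270 in RAS replicate 3 or RAS replicate 4 and neither other, and 318 were in both RAS libraries and not MLL replicate 2. With equal numbers of best-scored peaks these counts were 1528, 137, 831 and 193, and at a score of 100 or more they were 426, 836, 430 and 459. Of the regions in MLL replicate 2, 93.6% were touched by RAS replicate 3 and 88.3% by RAS replicate 4. Of the RAS replicate 4 regions, 91.8% were touched by RAS replicate 3 and 89.6% by MLL replicate 2. Of the RAS replicate 3 regions, 86.8% were touched by MLL replicate 2 and 83.9% by RAS replicate 4. Among promoter-like regions every such share between these 3 libraries lay between 91.6% and 97.6%.

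**Figure D3:**
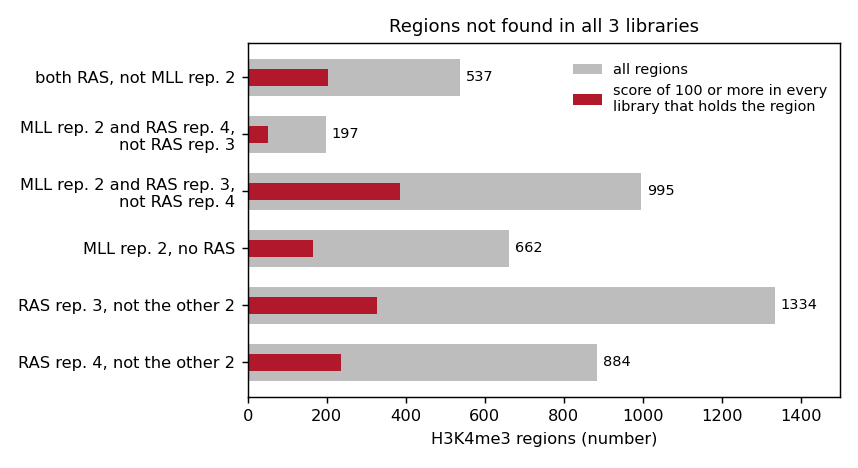
Number of H3K4me3 regions (horizontal axis) for each pattern of presence over MLL replicate 2 and both RAS libraries, leaving out the 12415 regions found in all 3. Grey bars are all regions of a pattern and red bars those scored 100 or more in every library that holds them. The 537 regions of both RAS libraries and the 662 of MLL replicate 2 are fewer than the 995 missing from RAS replicate 4 alone.

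Regions of one tumour type were weak and narrow beside the shared ones, and so were those that divide the RAS libraries. Those of MLL replicate 2 and no RAS library had a median width of 984.5 bp and a median score of 72.8, against 2179 bp and 827 for its shared regions, and 311 of the 662 reached 1 kb. Those of both RAS libraries had median scores of 142 in RAS replicate 3 and 105 in RAS replicate 4, against 2084 and 818 for shared regions. Regions found in RAS replicate 3 and in neither other library of the 3 had a median width of 214 bp and a median score of 66.6, those found likewise in RAS replicate 4 had 741 bp and 76.1, and those missing from RAS replicate 4 alone scored 109.99 in MLL replicate 2 and 119 in RAS replicate 3. A score of 100 or more in every library that held the region was reached by 164 of the 662 (24.8%) and by 204 of the 537 (38.0%), beside 24.6% and 26.6% of the regions found in RAS replicate 3 or RAS replicate 4 and in neither other library and 38.6% and 26.4% of those missing from RAS replicate 4 or RAS replicate 3 alone. At 500 or more the numbers were 1 and 15, beside 9 regions missing from RAS replicate 4 alone and 1 missing from RAS replicate 3 alone, and beside 24 found in RAS replicate 3 and 7 in RAS replicate 4 and in neither other library of the 3.

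The regions of both RAS libraries that scored highest were strong H3K4me3 regions with no peak in either MLL list. At chr6:38043522-38047317 the scores were 963 in RAS replicate 3 and 1499 in RAS replicate 4, over widths of 2261 and 3796 bp, and the nearest H3K4me3 peak in MLL replicates 1 and 2 was 155 and 156 kb away. H3K27ac and H3K79me2 were nevertheless called there in all 4 tumours, H3K27ac over 248 and 492 bp in MLL replicates 1 and 2 and over 3096 and 3766 bp in RAS replicates 3 and 4. The region chr1:95054002-95056995 scored 1019 and 759 in the RAS libraries and lay 145 and 55.7 kb from the nearest H3K4me3 peak of MLL replicates 1 and 2. It carried H3K27ac over its full 2994 bp in both RAS tumours, over 291 bp in MLL replicate 1 and not in MLL replicate 2. At chr12:110103476-110107603 the scores were 1476 and 766, H3K27ac covered all 4128 bp in both RAS tumours, 1100 bp in MLL replicate 1 and none in MLL replicate 2, and H3K79me2 was called in 3 of 4 tumours. At chr19:43960256-43965498, with scores of 923 and 2314, the nearest H3K4me3 peaks of the MLL libraries were only 4.52 and 5.43 kb away. A region on chromosome 18 scored highest of this class, at 2126 and 1301, and carried H3K27ac, H3K79me2 and H3K4me1 in 4 of 4 tumours. The nearest H3K4me3 peak lay 5.14 kb away in MLL replicate 2 and 281 kb away in MLL replicate 1.

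Of the 15 regions with scores of 500 or more in both RAS libraries and no H3K4me3 in MLL replicate 2, 11 held an H3K27ac peak in MLL replicate 1, 10 in MLL replicate 2 and 13 in each RAS tumour. Over the regions shared by the 3 libraries H3K27ac was called at 69.8% and 41.6% in MLL replicates 1 and 2. In RAS replicates 3 and 4 it was called at 85.8% and 81.6%. The counts in MLL replicate 1 and the RAS tumours lay near those shares, and the count in MLL replicate 2 lay above its share. Only 59.8% of the shared regions scored 500 or more in all 3 libraries, so they were not matched for score. The list of MLL replicate 2 is the one that lay mostly on H3K79me2. The first of the class that allowed MLL replicate 1 was of another kind: chr15:76000554-76015226 measured 11597 bp in RAS replicate 3 and 14673 bp in RAS replicate 4, and 982 bp in MLL replicate 1, and H3K9me3 covered between 12773 and 14118 bp of it in all 4 tumours. H3K79me2 was called there over 14529 bp in RAS replicate 3 only, and H3K27ac over 9211 bp in MLL replicate 2 only.

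Regions found in both MLL libraries and no RAS library were weaker. The highest of the 35 was chr6:28930584-28932387, with scores of 204 in MLL replicate 1 and 208 in MLL replicate 2, and the nearest RAS peaks were 147 and 146 kb away. H3K27me3 was called there in 4 of 4 tumours, over all 1804 bp in both RAS tumours and over 414 and 1178 bp in MLL replicates 1 and 2, and H3K4me1 was called in both MLL tumours and in neither RAS tumour. The next, chr19:36131347-36132662, had scores of 188 and 178 and the same marks: H3K27me3 in 4 of 4 tumours and H3K4me1 in both MLL tumours alone. The other 3 named regions did not show this. At chr19:31737708-31739601 (scores 362 and 141) H3K27me3 was called in 2 of 4 tumours and H3K4me1 in none, at chr1:162281156-162282518 (scores 421 and 126) H3K4me1 and H3K27ac were called in RAS replicate 4 only, and at chr1:172039414-172041139 (scores 132 and 110) H3K27ac was called in RAS replicate 3 only. Over the 35 regions H3K4me1 was called at 17.1%, 37.1%, 17.1% and 14.3% in replicates 1 to 4. H3K27me3 was called at 31.4% to 40.0% of them, against 6.17% to 12.6% of the 5012 regions shared by all 4 libraries, and H3K27ac at 2.86%, 8.57%, 11.4% and 11.4% in replicates 1 to 4, against 79.5%, 57.1%, 89.5% and 87.2%. H3K27me3 was also called at 13.7% to 26.6% of the 497 regions of both RAS and no MLL library. Regions in MLL replicate 1 alone had 5.83% to 11.7%. Over the 3 libraries without it, regions missing from RAS replicate 4 alone had 24.3% to 44.1%. H3K9me3 was called at 8.57% to 14.3% of the 35, 9.05% to 14.9% of the 497 and 2.21% to 8.32% of the 5012.

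Of the 662 regions in MLL replicate 2 and no RAS library, 29 (4.38%) were also found in MLL replicate 1, against 39.8% of the regions shared by all 3 libraries, 6.33% of the both-RAS class, and 2.62% and 4.30% of the regions found in RAS replicate 3 or in RAS replicate 4 and in neither other library of the 3. The highest-scored of the 662 was chr19:55197793-55202082. It was 4290 bp wide with a score of 672, and the nearest H3K4me3 peaks of the other 3 libraries lay 22.3 to 23.9 kb away. Of the 5 other marks, H3K79me2 and H3K27me3 also differed between the tumour types there. H3K79me2 covered 2426 bp in MLL replicate 1 and 3312 bp in MLL replicate 2 and was called in neither RAS tumour. H3K27me3 covered 4290 and 4276 bp in RAS replicates 3 and 4 and was called in neither MLL tumour. H3K27ac was called over 485 bp in MLL replicate 1 only, and H3K4me1 and H3K9me3 in no tumour. At the second, chr2:66621379-66623500, with a score of 463, H3K79me2 was again called in both MLL tumours (1515 and 857 bp) and in neither RAS tumour, and none of the other 4 marks was called in any tumour. The remaining 3 did not show this division. At chr16:13357959-13360746 (score 349) H3K79me2 was called in 3 of 4 tumours, at chr9:114471369-114473817 (score 270) H3K27me3 was called in 4 of 4, and chr6:129399764-129402587 (score 438) held none of the 5 other marks in any tumour and a 253 bp H3K4me3 region in MLL replicate 1, with a score of 61.5. Over the whole class, 12 of 662 regions carried H3K79me2 in both MLL and no RAS tumour, or 1.81%, against 2.42% of the regions shared by all 3 libraries. H3K27me3 in both RAS and no MLL tumour was found at 23 of the 662 (3.47%) and at 228 of the 12415 shared regions (1.84%). The both-RAS class had 2.42%, regions missing from RAS replicate 4 alone 3.62% and those missing from RAS replicate 3 alone 1.02%.

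Widths were then compared region by region over the 12415 shared regions. Their median width was 2179 bp in MLL replicate 2, 1965 bp in RAS replicate 3 and 2205 bp in RAS replicate 4. The median log2 ratio was 0.19 for MLL replicate 2 over RAS replicate 3, with 76.1% of regions wider in the MLL library, and 0.03 over RAS replicate 4, with 53.9% wider. Between the RAS libraries it was 0.16 for replicate 4 over replicate 3, with 69.6% wider in replicate 4, which lies between both MLL values. Across regions the widths of each pair rose together, with Spearman's rho of 0.859, 0.815 and 0.834 in the order given. Regions are not independent replicates and share the same promoters, so these are descriptions.

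The ratio depended on the width of the region. Among the 4914 shared regions with a mean width from 1 to under 2 kb, the median log2 ratio was 0.29 over RAS replicate 3 and 0.18 over RAS replicate 4. Among the 999 with a mean width of 4 kb or more it was 0.08 and -0.10. MLL replicate 2 therefore had the wider small regions of both comparisons, while its broad regions lay between those of the RAS libraries, with medians of 4957, 4685 and 5373 bp in replicates 2, 3 and 4.

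MLL replicate 2 was at least 1.5-fold wider than both RAS libraries at 589 shared regions (4.74%) and at least 1.5-fold narrower than both at 77 (0.62%). Each RAS library also stood apart from the other 2 in width. RAS replicate 4 was wider than both others at 420 regions and narrower at 320, and RAS replicate 3 was wider at 52 and narrower at 737. Where the RAS libraries lay within 0.32 of each other on the log2 scale and both reached 1 kb, which held for 6917 regions, MLL replicate 2 was at least 1.5-fold wider than their mean at 207 and narrower at 82.

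The largest widening among these was at chr3:151100309-151104357, which measured 4049 bp in MLL replicate 2 against 1157 and 1280 bp in RAS replicates 3 and 4, a log2 ratio of 1.73 over the RAS mean. It measured 260 bp in MLL replicate 1. H3K79me2 was called there in both MLL tumours, over 1422 and 1115 bp, and in neither RAS tumour. The third, chr6:52124420-52130911, measured 6492 bp against 2281 and 2725 bp and carried H3K27me3 over 259, 2093 and 6106 bp in replicates 1, 2 and 4 and not in RAS replicate 3. At the second and the fourth, chr1:134285039-134288864 and chr10:44246597-44250264, H3K27me3 was called in both RAS tumours and in neither MLL tumour, and widths were 3826 and 3644 bp in MLL replicate 2 against 1244 to 1533 bp in the RAS libraries. MLL replicate 1 had no H3K4me3 region at either. The fifth, chr13:83662216-83667445, measured 5230 bp against 1860 and 2230 bp. Over the 12415 shared regions, H3K27me3 in both RAS and no MLL tumour was found at 1.84%. H3K79me2 in both MLL and no RAS tumour was found at 2.42% of them. The H3K27me3 lists covered 10.8 and 23.7 Mb in the MLL tumours, against 102 and 32.5 Mb in the RAS tumours.

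The largest narrowing was at chr14:66587210-66591138, which measured 1089 bp in MLL replicate 2 against 3404 and 3749 bp in RAS replicates 3 and 4, a log2 ratio of -1.72. MLL replicate 1 had no region there. H3K27ac covered 1800 and 1504 bp of it in MLL replicates 1 and 2 and all 3929 bp in both RAS tumours. At the other 4 narrowed regions H3K4me3 measured 870 to 1989 bp in MLL replicate 2, with log2 ratios from -1.58 to -1.18, and all of them carried H3K27ac in at least 3 of 4 tumours, as did 69.2% of all shared regions.

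The width ratio also depended on the chromosome, and this separated the RAS libraries from each other. The 6 autosomes on which the median region was narrower in MLL replicate 2 than in RAS replicate 4, chromosomes 6, 8, 12, 15, 18 and 19, were picked out by that ratio, so its separation from the other autosomes is a description. The median log2 ratio of MLL replicate 2 over RAS replicate 4 was between -0.30 and -0.11 on these 6, with the lowest value on chromosome 15, and between 0.05 and 0.09 on the other 13 autosomes. It was 0.32 on chromosome X. The ratio of MLL replicate 2 over RAS replicate 3 did not follow these chromosomes: it was between 0.12 and 0.20 on the 6 and between 0.11 and 0.25 on the 13, and 0.31 on X. Scores of the same regions split likewise, but they are not a separate check, because higher-scored regions were also wider. The median log2 score ratio of MLL replicate 2 over RAS replicate 4 was between -0.49 and -0.19 on the 6. It was between 0.03 and 0.17 on the 13, and 0.56 on X.

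**Figure D4:**
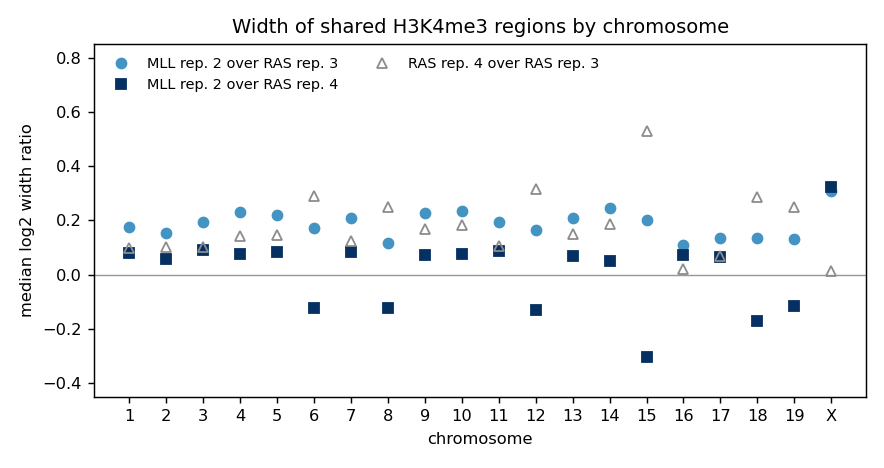
Median log2 ratio of H3K4me3 region width (vertical axis) over the regions shared by MLL replicate 2 and both RAS libraries, by chromosome (horizontal axis), with 1 symbol for each pair of libraries. The squares, MLL replicate 2 over RAS replicate 4, lie between -0.30 and -0.11 on chromosomes 6, 8, 12, 15, 18 and 19 and between 0.05 and 0.09 on the other 13 autosomes.

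Peak numbers of other marks were set on the same chromosomes. The log2 number of H3K4me1 peaks in RAS replicate 4 over RAS replicate 3 was between 0.01 and 0.64 on the 6 chromosomes, highest on chromosome 15, between -0.53 and 0.09 on the other 13 autosomes, and -0.96 on X. For H3K27ac the ranges were 0.12 to 0.32 and -0.05 to 0.15, and X was at 0.04. The H3K27me3 ranges were 0.13 to 0.88 and -0.56 to 0.37, with X at -0.33. H3K79me2 did not follow these chromosomes, with 0.33 to 0.52 on the 6, 0.26 to 0.51 on the 13 and -0.14 on X. All of these ranges overlapped between the 6 and the 13. The chromosome also moved with the counts of one-type regions. RAS replicate 4 alone held 9.29% of the union regions on the 6 chromosomes and 3.83% on the 13. Regions of both RAS libraries not found in MLL replicate 2 made up 4.33% on the 6, 2.79% on the 13 and 2.04% on X. Regions of MLL replicate 2 and no RAS library made up 3.49%, 3.99% and 4.89%. On the 13 autosomes alone, MLL replicate 2 was wider than both RAS libraries by at least 1.5-fold at 5.16% of shared regions, against 2.77% on the 6 and 11.5% on X. What the 6 chromosomes share was not tested.

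Other marks were read at the regions of each class, in every tumour, by at least 1 bp of overlap. The regions of both RAS libraries not found in MLL replicate 2 carried H3K27ac in 59.8% and 59.6% of cases in RAS replicates 3 and 4, and in 31.1% and 15.6% in MLL replicates 1 and 2. The direction was the same at the regions shared by all 3 libraries, with 85.8% and 81.6% in RAS and 69.8% and 41.6% in MLL. H3K27ac lists covered 116 and 113 Mb in the RAS tumours and 20.0 and 22.1 Mb in the MLL tumours, and the part of this difference in the shares was not tested. Of these lists, that of MLL replicate 2 is the one that lay mostly on H3K79me2. Among regions with H3K27ac in both RAS tumours, MLL replicate 1 held it at 54.6% of the both-RAS class and at 83.7% of the shared regions, and MLL replicate 2 at 21.6% and 50.6%. The other classes not shared by all 3 libraries were also below the shared regions, at 55.3% to 66.3% in MLL replicate 1 and 15.9% to 24.0% in MLL replicate 2 over the regions of MLL replicate 2 and no RAS library and those missing from 1 RAS library alone.

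H3K4me1 differed less. At the both-RAS class it was called at 30.0% and 34.8% of regions in MLL replicates 1 and 2 and at 44.3% and 41.5% in RAS replicates 3 and 4, so the MLL tumours lay below both RAS tumours. This order was not particular to the class. Regions found in RAS replicate 3 alone had 17.5% and 22.5% in MLL against 28.6% and 24.9% in RAS. Those found in RAS replicate 4 alone had 4.75% and 8.48% against 11.3% and 11.4%. At regions missing from RAS replicate 4 alone or from RAS replicate 3 alone the tumour types overlapped. The H3K4me1 lists of the MLL tumours also covered less, 15.5 and 24.95 Mb against 46.8 and 55.6 Mb. At shared regions the tumour types overlapped, with 55.8% and 66.0% in MLL and 64.6% and 50.5% in RAS. At the regions of MLL replicate 2 and no RAS library, H3K4me1 was most frequent in MLL replicate 2 itself, at 26.6%, against 14.7% in MLL replicate 1 and 18.3% and 13.9% in RAS.

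H3K79me2, the mark of transcribed genes, was found at 54.7% to 61.7% of shared regions in the 4 tumours, at 13.6% to 21.0% of the both-RAS class and at 6.50% to 9.67% of the regions of MLL replicate 2 and no RAS library. Classes that divide the RAS libraries were low too. Regions found in RAS replicate 3 alone had 14.3% to 16.1%, and those in RAS replicate 4 alone 13.3% to 14.7%. Those missing from RAS replicate 4 alone had 6.93% to 12.4%, and from RAS replicate 3 alone 6.09% to 12.2%. H3K27me3 went the other way. It was found at 6.40% to 14.2% of shared regions, at 15.8% to 27.4% of the both-RAS class and at 13.3% to 27.9% of the regions of MLL replicate 2 and no RAS library. Its share at the latter was 27.9% and 19.2% in the RAS tumours and 13.3% and 18.1% in the MLL tumours. The order was the same at shared regions, with 14.2% and 9.05% in RAS and 6.40% and 7.84% in MLL, and the lists of RAS replicates 3 and 4 also covered more, 102 and 32.5 Mb against 10.8 and 23.7 Mb. H3K9me3 was found at 1.54% to 6.00% of shared regions, at 10.6% to 16.6% of the both-RAS class and at 4.23% to 8.46% of the regions of MLL replicate 2 and no RAS library.

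**Figure D5:**
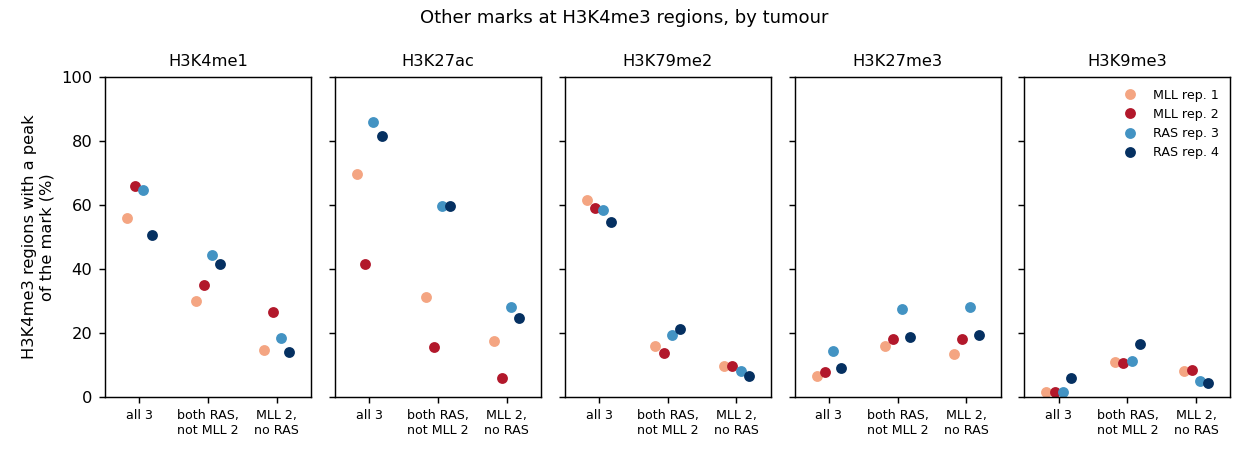
Share of H3K4me3 regions that hold a peak of each of 5 other marks (vertical axis, percent), for regions found in all 3 libraries, in both RAS libraries and not MLL replicate 2, and in MLL replicate 2 and no RAS library, with 1 point per tumour. H3K27ac at the both-RAS class lies at 59.8% and 59.6% in the RAS tumours and at 31.1% and 15.6% in the MLL tumours.

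The classes also differed in how near they lay to shared H3K4me3. Regions of both RAS libraries lay a median of 24.98 kb from the nearest shared region, and 16.2% lay within 5 kb of one. Regions of MLL replicate 2 and no RAS library lay farther off, at a median of 50.4 kb, with 9.52% within 5 kb. Regions found in 1 RAS library and in neither other library lay nearer, at medians of 23.6 kb for RAS replicate 3 and 31.1 kb for RAS replicate 4, with 18.4% and 17.6% within 5 kb. Regions missing from RAS replicate 4 alone and from RAS replicate 3 alone had medians of 40.5 and 26.8 kb.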

How the data were processed

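The submitters' processing notes list build mm9 and the tools CASAVA 1.7, Bowtie, MACS and deepTools, with no order or settings. The deposited file of each library is a peak list with a score per peak, the authors' own value, and the peaks were called per library. The names of the lists pair each antibody library with a second library of the same tumour. Input samples were not analysed here. Lists hold no read counts, so depth is unknown and no counting interval is given.

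Gaps of up to 1 kb between peaks were closed, regions of the libraries were joined into a union, and presence needed at least 1 bp (Python 3.11.15, numpy 2.4.6, pandas 2.3.3). Scores of 3000 or more, near a ceiling, were left out of score ratios. Log2 values of 2 libraries against 2 were tested by an exact two-sided permutation test over 6 splits, and no p was adjusted because none can pass 0.05. Whether replicates are separate animals is not given, so a p measures the spread between these libraries. Gap closing, the union, presence by overlap and the permutation test were tested on simulated data. Width ratios, other marks, chromosome ratios and distances were not.

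Regions named are the 5 with the highest lowest score of each one-type class, the 5 widest in all 4 libraries, and the 5 most widened and narrowed among shared regions whose RAS widths lay within 0.32 on the log2 scale. Members and lists were chosen with earlier results of these data known. Alternatives covered gap, width, score, overlap, number of peaks, autosomes and each library left out.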

Additional observations from a re-analysis of the deposited data

Results flagged for a closer look

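The number of promoter-like H3K4me3 regions in MLL replicate 1, 1025, lay far from the other 3 libraries, which held 11736 to 13543. Its gap to the nearest library, divided by the range over the 4, was 0.856, above Dixon's 95% critical value for 4 samples. Of 8 quantities examined over the 4 libraries this was the 1 past that value, and chance passes about 1 in 20. The library was known to be weak when the comparison was set up, so its place past that value is a description. Region number and median region width came close, with ratios of 0.808 and 0.807 for the same library. Its depth is unknown.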

How the results depend on the processing

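Over the 4 libraries, leaving out MLL replicate 1 turned the log2 difference between MLL and RAS from negative to positive for promoter-like number (0.18), median width (0.14) and covered length (0.16). Over each library left out, these ranged from -3.54 to 0.18, from -2.77 to 0.14 and from -3.22 to 0.16, and no other alternative run turned them. The 35 regions of both MLL and no RAS library became 3 with at least 50% of a region covered, 18 at a score of 100 or more, 88 with equal numbers of peaks, and 66 to 2157 with a library left out. The 497 of both RAS and no MLL library became 318 and 314 with the cover and equal-number settings and 537 to 7925 with a library left out.

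For MLL replicate 2 against RAS, the promoter-like difference of 0.18 was 0.26 with no gap closed, 0.0705 at a minimum of 500 bp, -0.0459 with no minimum, 0.15 at a score of 100, 0.27 with equal numbers and -1.001 for those with H3K27ac of the same tumour. The width difference of 0.14 was 1.22 with no gap closed and -0.0558 for the share of broad regions. The 662 regions of MLL replicate 2 and no RAS library became 1585 with the cover setting, 426 at a score of 100, 1528 with equal numbers, and 164 with that score in the holder and no peak elsewhere. The 537 of both RAS libraries became 318, 193 with equal numbers and 204 with the last rule, so which class was larger depended on the setting. Both 3-library differences and shares held without the 6 chromosomes and X (0.20, 0.16, 3.99% and 2.79%). That alternative, the rule on score in the holders, and all alternatives of the 3-library results were chosen after the data were seen. The causes were not tested. Regions near annotated gene starts were not run, because no gene annotation of this build was used. No paired analysis was possible because the MLL and RAS libraries share no replicate number.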

Other observations

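Other marks were also read at regions that divide the RAS libraries. At the regions shared by MLL replicate 2 and both RAS libraries, H3K9me3 was called at 1.54% to 6.00% and H3K27me3 at 6.40% to 14.2% over the 4 tumours. Of the 884 regions found in RAS replicate 4 alone, 49.9% carried H3K9me3 in that tumour, and 46.2%, 41.6% and 28.4% did so in replicates 1, 2 and 3. The 1334 regions found in RAS replicate 3 alone carried H3K9me3 at 5.10% to 7.35% over the 4 tumours. Of the 197 regions missing from RAS replicate 3 alone, H3K9me3 was called at 44.7% to 48.7% in the 4 tumours. The 995 regions missing from RAS replicate 4 alone carried H3K9me3 at 1.01% to 3.02% and H3K27me3, the Polycomb mark, at 24.3% to 44.1%. The 9 of them with scores of 500 or more in the libraries that held them carried H3K27me3 in 6 cases in RAS replicate 4 itself and H3K27ac in none there.

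H3K9me3 differed between chromosomes more than the other marks did. Its log2 number of peaks in RAS replicate 4 over RAS replicate 3 was between 0.77 and 3.85 on chromosomes 6, 8, 12, 15, 18 and 19, with the highest value on chromosome 15, and between 0.19 and 1.74 on the other 13 autosomes. Those values are descriptions of 2 libraries, with no replicate check.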
